A study of Bos taurus with 20 samples.

Results

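Epithelial junction genes were followed through RNA sequencing of bovine embryos at day 14. The group was defined by gene symbol as CDH1, JUP, DSP, CLDN3, CLDN6, CGN and SPINT1, so it holds 7 of the 15542 genes in the deposited table, and all 7 were among the 10599 genes with enough reads to be tested. The 20 samples fall into 4 groups: whole fresh embryos (n = 6), trophectoderm (TE) isolated from fresh embryos (n = 5), whole vitrified embryos (n = 2) and TE isolated from vitrified embryos (n = 7). All embryos were viable and were flushed from the uterus at day 14. Fresh embryos had not been vitrified, and vitrification preserves embryos by cooling so fast that water turns to glass without ice crystals. The labels give no breed, no batch and no stage of vitrification, nor do they tie samples to embryos, so p-values measure the spread between these samples only.

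TE is the outer epithelium of the ruminant conceptus and the layer that later contributes the placenta. Its cells are joined by a stack of junctions. Tight junctions, built from claudins and held to the cytoskeleton by plaque proteins such as cingulin (CGN), seal the space between cells. Adherens junctions hold neighbours together through E-cadherin (CDH1), and desmosomes tie their intermediate filaments together through plakoglobin (JUP) and desmoplakin (DSP). SPINT1 is a membrane-bound inhibitor of matriptase and related serine proteases, and it is known as a gene that the placental epithelium needs.

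The 7 genes are protein coding. Positions are those of the deposited table, on UMD3.1. CDH1 lies on the plus strand of chromosome 18 (36221702 to 36243479), and JUP on the minus strand of chromosome 19 (42602486 to 42626600). DSP lies on the minus strand of chromosome 23 (47670503 to 47714288). CLDN3 and CLDN6 share chromosome 25 but lie far apart, CLDN3 on the plus strand (34018456 to 34019669) and CLDN6 on the minus strand (2435644 to 2438483). CGN lies on the minus strand of chromosome 3 (19290676 to 19309322), and SPINT1 on the plus strand of chromosome 10 (36490427 to 36504314). The spans of JUP and SPINT1 also hold rows for small RNA families, 3 in JUP and 1 in SPINT1, and reads there could not be assigned to a strand from the sources used here.

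Levels are given as RPKM, the reads of a gene divided by its length in kilobases and by the library's total in M (1000000) reads. Length here means the whole genomic span with introns, from 1.21 kb for CLDN3 to 43.79 kb for DSP, so levels are compared here between groups and not between genes. The libraries held 6.01 to 14.53 M reads, recovered from the table as described under processing. Fresh TE libraries (n = 5) were unlike the remaining 15. Genes in the table took 33.8 to 40.3% of their reads, against 57.5 to 63.9% elsewhere, and mitochondrially encoded messenger RNA took 1.09 to 1.41% of those gene reads, against 3.01 to 9.87% elsewhere. This gap separates fresh TE from every other group, so its effect on the values and that of the group cannot be told apart. Counts of fresh TE libraries 1 and 2 nearly matched within counting error, with a chi-square of 1.9 per degree of freedom, and those of 3 and 4 gave 1.5, against 11.9 to 22.6 for the other fresh TE pairs. Averaging each of these pairs into 1 library changed no count of junction genes past the threshold by more than 1.5 times. Whether such a pair came from 1 source was not tested. If so, fresh TE would hold fewer than 5 independent samples, and its p-values as fitted would be too small.

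All 10 trophectoderm markers were detected in every group. Their summed levels were 2110 to 2700 RPKM in fresh TE and 1940 to 2920 RPKM in vitrified TE. Whole embryos had 1370 to 2050 RPKM fresh and 2260 to 2710 vitrified, the latter within the range of vitrified TE. The sums therefore do not verify the TE label. A sum also hides changes of single markers. ASCL2 (limma change 3.21, adjusted p = 2.4e-09), KRT8 (2.39, 2e-11) and GATA3 (0.77, 6.4e-07) were higher in vitrified than in fresh TE. So were GATA2 (0.76, 0.00055), DAB2 (0.56, 0.0012) and TEAD4 (0.19, 1.4e-06), beside 69% of all tested genes. KRT18 was lower (-0.52, 0.0051), and TFAP2A, ELF5 and HAND1 did not pass. Of 9 hypoblast markers, 6 were found, and their summed level was 0.0595 to 0.482 RPKM in fresh TE, 0.751 to 4.06 in fresh embryos, 3.01 to 6.53 in vitrified TE and 3.18 to 3.64 in vitrified embryos. The hypoblast, the inner epithelium that lines the yolk sac, has junctions of its own. Of 7 epiblast markers, 6 were found. Their sum was 1.47 to 3.95 RPKM in fresh TE and 3.79 to 8.38 in vitrified TE. Whole embryos had 3.86 to 11.8 RPKM fresh and 5.97 to 31.6 vitrified, both overlapping vitrified TE. Of 8 blood and immune markers, 5 were found, with sums of 9.8 to 15.9 RPKM in fresh TE and 4.41 to 7.23 in vitrified TE. Within that list the macrophage gene AIF1 stood at 11.4 ± 2.5 RPKM (SD, n = 5) in fresh TE and 0.632 ± 0.283 (SD, n = 7) in vitrified TE. The other 3 tested genes of that list went the other way, with limma changes of 1.56 for CD68 (adjusted p = 1.3e-07), 1.11 for HBA (3.1e-07) and 0.39 for CD14 (0.00076). Only 3 of 8 endometrial markers were found. They summed to 0.0462 to 0.486 RPKM in fresh TE and 0.79 to 2.26 in vitrified TE. Just 1 of these was tested, and another, HOXA11, had reads in fresh TE and none in vitrified TE. The hypoblast and endometrial sums were higher in every vitrified TE library than in every fresh one. Most junction genes were so too, as were 54.6% of all tested genes. The blood and immune sums were lower, and the trophectoderm and epiblast sums overlapped between fresh and vitrified TE. Their part in the results was not tested. In such bulk samples fewer cells of a type and less RNA per cell cannot be told apart.

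Vitrified TE was compared with fresh TE first, the comparison of the study's question in the isolated tissue. All 7 junction genes were higher in vitrified TE, by 109-fold for CLDN6, 24.8-fold for CLDN3, 12.4-fold for CDH1, 10.2-fold for DSP, 6.95-fold for JUP, 4.53-fold for SPINT1 and 1.42-fold for CGN, as ratios of mean RPKM. All 7 passed the threshold of 0.05 for the adjusted p of limma, while 69% of all tested genes were called higher by the same rule, so the count alone does not set them apart. The median change of the 7 genes was 1.77 on the log2(RPKM + 1) scale, against 0.18 over all tested genes. The 7 genes were chosen with earlier results of these data known, and the tested genes were not matched to them in level. These medians, here and in the comparisons below, are therefore descriptions and do not set the 7 genes apart. Apart from CGN, each gene was lower in every fresh TE library than in every vitrified TE library, and 54.6% of tested genes were separated in that direction.

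The scale matters for this comparison, since the median of all genes moved with it. Of all genes called between vitrified and fresh TE, 91.2% were higher as deposited, 75.9% after scaling to the reads of the listed genes, 56% with median-ratio size factors and 40.4% after quantile normalization. CDH1, JUP, DSP, CLDN3, CLDN6 and SPINT1 were higher in vitrified TE and past the threshold under each of these 4 scalings. The size of their changes moved with the scaling. It ran from 0.59 to 1.25 for SPINT1, 1.29 to 2.10 for JUP and 1.20 to 1.88 for DSP. For CDH1 it ran from 0.48 to 0.98, for CLDN3 from 2.62 to 3.33 and for CLDN6 from 4.26 to 5.09. CGN was higher as deposited (0.36), not past the threshold per listed reads (-0.10), and lower with median-ratio factors (-0.45) and quantile normalization (-0.50).

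**Figure D1:**
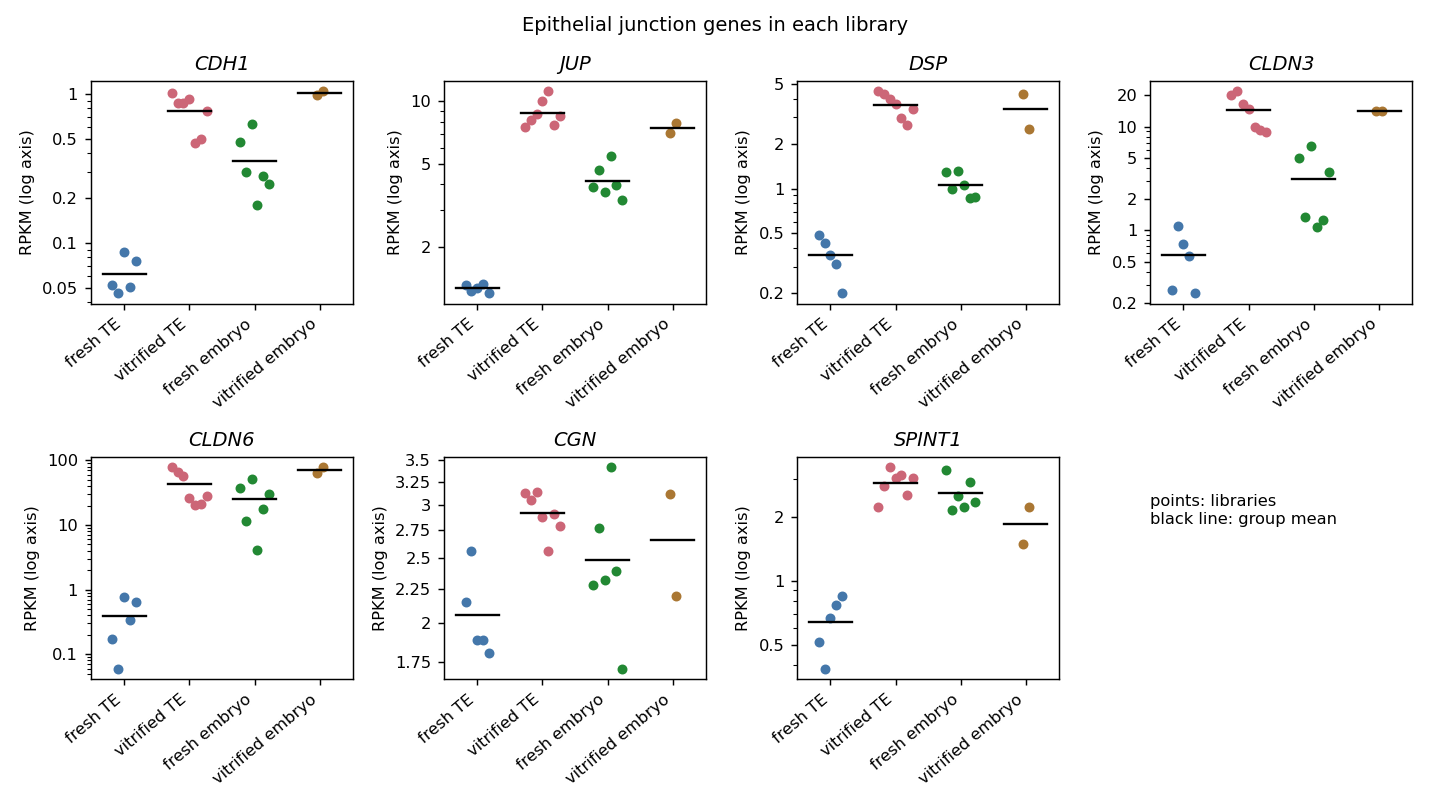
Levels of the 7 junction genes in each of the 20 libraries, in RPKM on a log axis, 1 panel per gene. Points are libraries and black lines are group means. The fresh TE mean is lowest in every panel, most clearly for CLDN6 (0.392 RPKM on average against 42.6 in vitrified TE), while the groups overlap for CGN.

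At the adherens junction, CDH1, which codes for the cadherin that binds neighbouring cells, was barely detected in fresh TE. It stood at 0.0520, 0.0459, 0.0877, 0.0505 and 0.0755 RPKM in fresh TE libraries 1 to 5, which is 6 to 15 reads per library. In vitrified TE the lowest of 7 libraries was at 0.464, the median at 0.870 and the highest at 1.01 RPKM. The groups did not overlap, and limma gave a difference of 0.73 ± 0.082 (SE) on the log2(RPKM + 1) scale, adjusted p = 2.2e-07. For a gene this low the added 1 shrinks the log2 difference, and the ratio of means was 12.4. Fresh embryos lay between, from 0.181 through a median of 0.290 to 0.626 RPKM, and the vitrified embryos stood at 0.975 and 1.04 RPKM. The order of the 4 group means was fresh TE, fresh embryo, vitrified TE and vitrified embryo. Fresh embryos overlapped vitrified TE, and vitrified TE overlapped vitrified embryos.

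JUP codes for plakoglobin, the catenin that serves both adherens junctions and desmosomes. Its 5 fresh TE libraries were tightly grouped at 1.32, 1.23, 1.28, 1.33 and 1.20 RPKM, from 178 to 242 reads each. Vitrified TE ranged from 7.50 through a median of 8.56 to 11.2 RPKM. No fresh TE library came near the vitrified TE values, and the difference was 2.10 ± 0.105 (SE), adjusted p = 7e-12 with limma. This was the 356th highest change of the 10599 tested genes. Fresh embryos lay from 3.37 through 3.92 to 5.45 RPKM, and the vitrified embryos at 7.03 and 7.92 RPKM. JUP thus fell into 3 steps that did not overlap, with fresh TE lowest, fresh embryos next and both vitrified groups highest and overlapping.

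DSP codes for desmoplakin, which links the desmosomal plaque to keratin filaments. In fresh TE it stood at 0.492, 0.434, 0.361, 0.311 and 0.198 RPKM, and in vitrified TE between 2.68 and 4.5 with a median of 3.70 RPKM. The groups lay far apart, with a difference of 1.77 ± 0.114 (SE), adjusted p = 1.6e-10 with limma. Fresh embryos had 0.861 to 1.32 RPKM with a median of 1.02, and the vitrified embryos 4.30 and 2.49 RPKM. The order was the same as for JUP, again without overlap between fresh TE, fresh embryos and the vitrified groups. The pair of vitrified embryos had a coefficient of variation of 37.7%, against 18.5% in vitrified TE and 18.9% in fresh embryos, with library 2 the lower.

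The claudins form the strands of the tight junction, and they held the widest range of the 7 genes. CLDN3, a sealing claudin, was listed at 0.267, 1.10, 0.734, 0.566 and 0.246 RPKM in fresh TE, from only 2 to 8 reads per library. The exact 95% Poisson intervals of these values, which cover counting error only, ran from 0.0298 at the lowest to 2.16 RPKM at the highest. Vitrified TE had 8.94 to 22.0 RPKM with a median of 14.7, and the difference was 3.24 ± 0.311 (SE), adjusted p = 2.6e-08 with limma. Every vitrified TE library was above the upper limit of every fresh TE library. Fresh embryos were spread from 1.08 through 2.49 to 6.50 RPKM, from 8 to 92 reads, and reached down into the range of fresh TE. The vitrified embryos, at 14.3 and 14.1 RPKM, lay within the range of vitrified TE.

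CLDN6, a claudin of embryonic epithelia, had the largest ratio of means of the 7 genes. It stood at 0.171, 0.0586, 0.762, 0.339 and 0.632 RPKM in fresh TE, or 3, 1, 17, 7 and 12 reads. The single read of fresh TE library 2 allows 0.00148 to 0.327 RPKM (exact 95% Poisson interval). In vitrified TE the values were 78.5, 66.8, 57.0, 25.9, 20.2, 21.5 and 28.3 RPKM for libraries 1 to 7. Every vitrified TE library was therefore far above fresh TE, although libraries 1 to 3 were set off from 4 to 7, and the difference was 4.80 ± 0.465 (SE), adjusted p = 2.9e-08 with limma. Fresh embryos ranged from 4.17 through a median of 24.0 to 51.2 RPKM, overlapping vitrified TE, and the vitrified embryos had 64.6 and 79.5 RPKM.

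CGN codes for cingulin, the plaque protein under the tight junction, and its group means lay close together, from 2.06 to 2.92 RPKM. It stood at 2.15, 2.56, 1.89, 1.89 and 1.81 RPKM in fresh TE and at 2.56 to 3.14 RPKM in vitrified TE, with a median of 2.91. The groups touched at 2.56 RPKM. The difference as deposited was 0.36 ± 0.103 (SE), adjusted p = 0.0039 with limma, and its sign turned under the 3 other scalings given above. Fresh embryos had 1.71 to 3.42 RPKM and the vitrified embryos 3.12 and 2.20, so that each neighbouring pair in the order of means overlapped.

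SPINT1 had its own order. In fresh TE it stood at 0.513, 0.384, 0.669, 0.772 and 0.850 RPKM, and in vitrified TE at 2.21 to 3.43 with a median of 3.05 RPKM. The groups did not overlap, and the difference was 1.25 ± 0.105 (SE), adjusted p = 4.3e-09 with limma. Fresh embryos, at 2.15 to 3.33 RPKM with a median of 2.42, overlapped vitrified TE nearly throughout. Of the vitrified embryos, at 1.49 and 2.22 RPKM, the first was below both of these groups and the second within their ranges. SPINT1 is the gene of the 7 whose mean in vitrified embryos (1.86 ± 0.512, SD, n = 2) was below that in fresh embryos (2.58 ± 0.457, SD, n = 6).

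**Figure D2:**
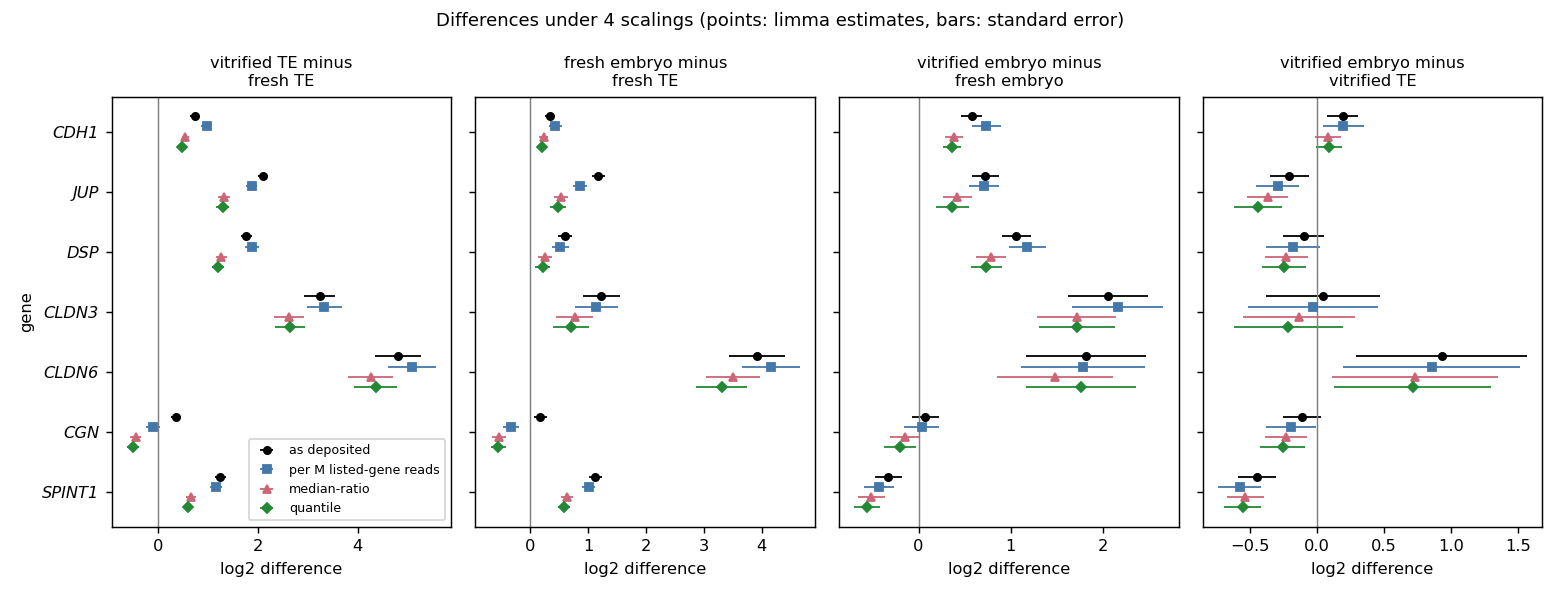
Change of each junction gene on the log2(RPKM + 1) scale in 4 comparisons, under the values as deposited and 3 other scalings. Points are limma estimates and bars standard errors. CGN lies on both sides of 0 in vitrified against fresh TE, from 0.36 to -0.50, while the other 6 genes stay above 0 there.

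Whole embryos were compared with the same question. Of the 7 genes, 5 were higher in vitrified than in fresh embryos: CLDN3 (4.51-fold), DSP (3.18-fold), CDH1 (2.86-fold), CLDN6 (2.84-fold) and JUP (1.79-fold). They passed the threshold, against 26.9% of tested genes called higher, and their values did not overlap between the groups, against 29.4% of tested genes. Per listed reads SPINT1 did not overlap either, in the lower direction, which made 6 of 7 against 34.8% of tested genes in both directions. The median change of the 7 genes was 0.72, against 0.06 for all tested genes. With limma, DSP differed by 1.06 ± 0.159 (SE, adjusted p = 0.00013) and CDH1 by 0.58 ± 0.115 (SE, adjusted p = 0.0011). JUP differed by 0.72 ± 0.146 (SE, adjusted p = 0.0013) and CLDN3 by 2.06 ± 0.434 (SE, adjusted p = 0.0017).

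CLDN6 stood closest to the threshold, at 1.82 ± 0.648 (SE, adjusted p = 0.039 with limma), and it missed the threshold under 15 of 18 alternatives, with adjusted p from 0.015 to 0.24. Leaving out fresh embryo 2, 4 or 5 (limma adjusted p = 0.068, 0.05 and 0.058) or vitrified embryo 1 or 2 (0.11 and 0.24) each ended the call. CGN differed by 0.07 (95% interval -0.23 to 0.38, adjusted p = 0.72), with no call. SPINT1 was lower by 0.33 as fitted (95% interval -0.63 to -0.02, adjusted p = 0.097), and it passed as lower with median-ratio factors (-0.51, adjusted p = 0.018) and quantile normalization (-0.56, adjusted p = 0.012). JUP missed the threshold under those scalings (0.42 and 0.37, adjusted p = 0.073 and 0.19). The group of vitrified embryos holds 2 libraries, which limits these estimates.

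Fresh embryos were compared with fresh TE, the contrast of whole embryo and isolated tissue without vitrification. It shares the fresh TE libraries with the vitrified TE comparison and is not independent of it. Every gene but CGN was called higher in the whole embryo, 6 of 7 against 60% of tested genes called higher. The median change of the 7 genes was 1.13, against 0.14 over all tested genes. CLDN6 was 64.7-fold higher (3.91 ± 0.481 SE on the log2 scale, adjusted p = 1.1e-06 with limma), CDH1 5.65-fold (adjusted p = 0.0018), CLDN3 5.4-fold (0.0026), SPINT1 4.04-fold (5.6e-08), JUP 3.28-fold (3.6e-08) and DSP 2.97-fold (0.00019). CLDN3 and CGN were the genes whose libraries overlapped between the groups, so 5 of 7 did not, against 48.4% of tested genes. CGN differed by 0.18 (95% interval -0.05 to 0.40, adjusted p = 0.15), and it passed without fresh embryo 6 (0.24, limma adjusted p = 0.039). With the other scalings CGN was lower, at -0.33, -0.53 and -0.55, and the adjusted p was 0.057, 0.00087 and 0.0011. DSP missed the threshold with median-ratio factors (0.25, adjusted p = 0.083) and quantile normalization (0.22, adjusted p = 0.15), and CLDN3 did with the latter (0.71, adjusted p = 0.056).

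Between the vitrified groups 1 of 7 genes was called: SPINT1, lower in vitrified embryos than in vitrified TE by 0.45 ± 0.143 (SE, adjusted p = 0.036 with limma, 0.644-fold), while 3.59% of tested genes were called lower. None of the 7 genes separated the groups without overlap as deposited, against 26.3% of tested genes in either direction. Per listed reads JUP and SPINT1 did, both lower in the vitrified embryos, against 25% of tested genes. The SPINT1 call was lost without vitrified embryo 1 (-0.26, limma adjusted p = 0.35) or 2 (-0.63, 0.081), and without vitrified TE 3, 4, 5 or 7 (adjusted p = 0.053 to 0.057). Such a lone vitrified embryo is assumed to vary like the other groups. The other changes were 0.93 ± 0.637 (SE) for CLDN6, 0.19 for CDH1, 0.05 for CLDN3, -0.10 for DSP, -0.11 for CGN and -0.21 for JUP, with adjusted p of 0.32, 0.24, 0.96, 0.69, 0.61 and 0.33.

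The vitrified-minus-fresh difference was smaller in whole embryos than in TE for 4 of the 7 genes, by limma's test of the difference itself, against 28.4% of tested genes called in that direction. The median of the 7 genes was -1.18, and that of all tested genes -0.08. For SPINT1 the estimates had opposite signs, 1.25 in TE and -0.33, which did not pass, in whole embryos, and the difference was -1.57 ± 0.179 (SE, adjusted p = 5.4e-06). The difference was -1.38 ± 0.180 (SE, adjusted p = 2.3e-05) for JUP, -2.98 ± 0.798 (SE, adjusted p = 0.0078) for CLDN6 and -0.70 ± 0.196 (SE, adjusted p = 0.01) for DSP. DSP was not past the threshold without vitrified embryo 2 (-0.40, adjusted p = 0.16), with median-ratio factors (-0.48, adjusted p = 0.084) or after quantile normalization (-0.46, adjusted p = 0.098). CLDN3 (-1.18, adjusted p = 0.099), CGN (-0.29, 0.22) and CDH1 (-0.15, 0.44) did not pass. With a pseudocount of 0.1 in place of 1, CDH1 (-1.02, limma adjusted p = 0.032) and CLDN3 (-2.02, 0.036) passed as well, making 6 of 7. All of these contrasts draw on the low fresh TE values.

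A ratio of 2 genes within a library is unchanged by any factor applied to the whole library. CGN was taken as the denominator after the values were seen, because its groups overlapped, and such a ratio shows unequal change and not that CGN stayed level. Vitrified TE had 3.1 to 5.66 JUP reads per CGN read, against 0.62 to 0.914 in fresh TE, and fresh embryos had 2.05 to 2.54. DSP reads per CGN read were 2.16 to 3.37 in vitrified TE, 0.724 to 1.34 in fresh embryos and 0.257 to 0.536 in fresh TE. For CLDN6 the ratio was 1.13 to 3.82 in vitrified TE, 0.186 to 3.36 in fresh embryos and 0.00348 to 0.0614 in fresh TE. CDH1 had 0.20 to 0.376 in vitrified TE, 0.0619 to 0.315 in fresh embryos and 0.0209 to 0.0542 in fresh TE, and SPINT1 had 0.525 to 0.908, 0.485 to 1.09 and 0.111 to 0.35. In these 5 genes every fresh TE ratio was below every ratio in fresh embryos and in vitrified TE. The share of all tested genes with such ratios was not computed, so this does not set the 5 genes apart. As deposited, 54.6% of tested genes were higher without overlap in vitrified TE than in fresh TE, and 48.4% in fresh embryos. The CLDN3 ratio separated fresh TE (0.00806 to 0.0279) from vitrified TE (0.207 to 0.468) but not from fresh embryos, whose lowest was 0.0206.

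**Figure D3:**
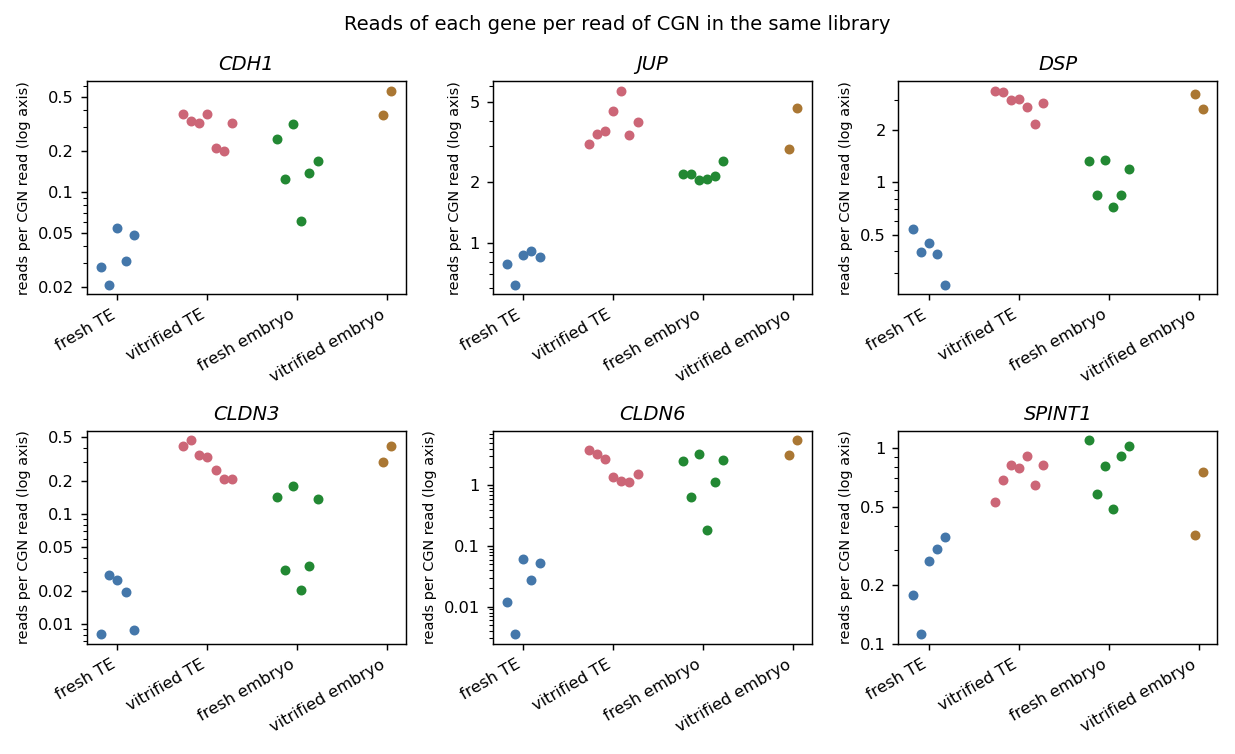
Reads of 6 junction genes per CGN read in each of the 20 libraries, on a log axis, which no factor per library changes. Points are libraries. Fresh TE has the lowest values for each of the 6 genes, with a median of 0.854 JUP reads per CGN read against 3.58 in vitrified TE.

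Within groups the 7 genes did not vary alike. In the 6 fresh embryos the coefficient of variation was 72.9% for CLDN3, 68.9% for CLDN6 and 47.3% for CDH1, against 17.7 to 22.9% for SPINT1, JUP, DSP and CGN. CLDN6 differed 12.3-fold between the lowest and highest fresh embryo, CLDN3 6.0-fold and CDH1 3.46-fold. For both claudins fresh embryos 1, 3 and 6 were the highest, at 5.04, 6.50 and 3.64 RPKM for CLDN3 and 37.5, 51.2 and 30 RPKM for CLDN6. Fresh embryo 4 was lowest for CDH1 (0.181 RPKM), CLDN3 (1.08) and CLDN6 (4.17), and highest for JUP (5.45) and CGN (3.42). It also had the fewest reads of the 6 (6.09 M) and the lowest hypoblast marker sum (0.751 RPKM). Fresh embryo 3, highest for CDH1 and both claudins, had the highest such sum (4.06). In vitrified TE the highest sum (6.53) was that of library 4, where CLDN6 stood at only 25.9 RPKM. The part of depth and of hypoblast cells in this spread was not tested. In vitrified TE the coefficients were 56.8% for CLDN6, 36.7% for CLDN3 and 27.4% for CDH1, and 7.1 to 18.5% for the other 4 genes.

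Pairs of junction genes were correlated over the 6 fresh embryos, 21 pairs in all, with exact two-sided permutation tests on log2(RPKM + 1). None passed after adjustment over the 21 pairs, the smallest adjusted p being 0.0875 for Pearson's r and 0.175 for Spearman's rho. JUP and CGN had r = 0.965 (exact permutation p = 0.00417) and rho = 0.943 (exact permutation p = 0.0167), and r = 0.914 without the 2 embryos farthest from the median of JUP. CLDN3 and CLDN6 had r = 0.891 (exact permutation p = 0.0153) and rho = 0.943, and r = 0.768 without 2 embryos. JUP and CLDN6 had r = -0.909 (exact permutation p = 0.0139) and rho = -0.829, but r = -0.29 without 2 embryos. Leaving out the embryos farthest from the median narrows the range and leaves few. These values therefore cannot show whether a relation rested on the embryos left out. No correlation within vitrified TE is given, since CLDN6 fell into separate clusters there.

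**Figure D4:**
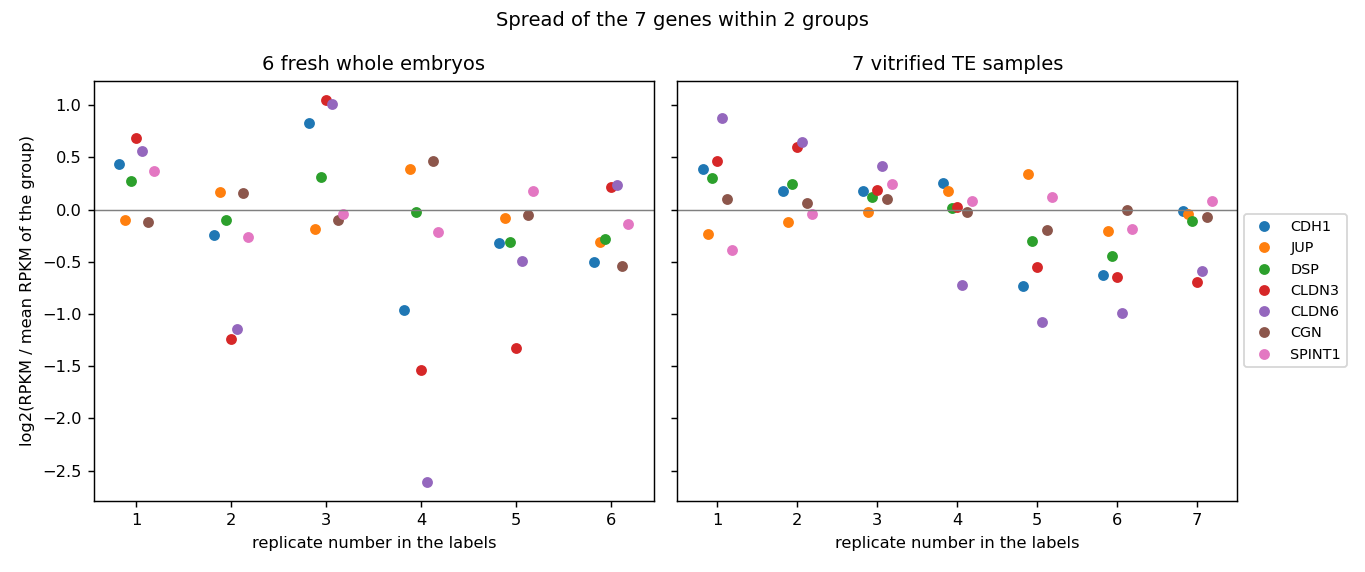
Each junction gene in the libraries of the fresh embryo and vitrified TE groups, as the log2 ratio to the group mean. Points are libraries, coloured by gene, and their numbers are those of the labels, with no order. CLDN3, CLDN6 and CDH1 have the widest spread, and fresh embryo 4 lies low for all 3.

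For each gene the tested genes most like it over all 20 libraries were found by Pearson's r of log2(RPKM + 1). These are descriptions, since differences between groups, the lower listed-gene share of fresh TE among them, enter into r. CDH1 was closest to ABCF1 (r = 0.971), UBTF (0.971) and ADAM19 (0.968), JUP to DDX56, PRPF8 and DPP3 (each 0.987), and DSP to CLIP1 (0.988), DBN1 (0.986) and ABCF1 (0.977). CLDN3 was closest to TMEM9 (0.975), TMEM189 (0.974) and ABCF1 (0.973), and CLDN6 to STUB1 (0.989), SRPK1 (0.989) and YIF1A (0.988). SPINT1 was closest to AKT1S1 (0.973) and RPS2 (0.968). CGN had no gene above 0.867 (IQGAP1), followed by NID2 (0.841) and WDR1 (0.819).

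With group means removed, the closest gene was again ABCF1 (0.929) for CDH1. For the others it was SUPT5H (0.931) for JUP, PCMT1 (0.853) for DSP, MECR (0.879) for CLDN3, PSMC5 (0.953) for CLDN6, ASAP1 (0.827) for CGN and CARS (0.843) for SPINT1. Among the junction genes themselves the highest such values were 0.824 for CLDN3 with CLDN6, 0.771 for CDH1 with CLDN6 and 0.744 for CDH1 with CLDN3, and the lowest was -0.721 for CLDN6 with JUP. These values pool the deviations of all 20 libraries, the separate clusters of vitrified TE among them, and are descriptions.

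Other genes of the same structures were counted in lists of 103 symbols, of which 98 were found and 77 tested. In vitrified against fresh TE, 58 passed as higher and 4 as lower, 15 did not pass, and the median change was 0.22. Over all tested genes 69% passed as higher and 6.66% as lower, with a median of 0.18, so these counts lie near the background. After quantile normalization the counts were 23 higher and 23 lower, so the balance of the lists followed the scaling. By structure, 15 of 21 tight junction genes were higher, 11 of 13 polarity genes, 7 of 8 adherens junction genes and 8 of 10 desmosome genes. So were 5 of 6 genes of matriptase and its partners, 8 of 14 genes listed with epithelial regulators and 4 of 5 mesenchymal genes. Each of these is to be read against the 69% of all tested genes called higher, and they are given as counts only.

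Among tight junction genes, F11R, an adhesion molecule of the junction, differed by 0.94 (limma adjusted p = 2.1e-08), from 0.621 to 2.12 RPKM on average. MARVELD2, which codes for tricellulin, differed by 0.58 (adjusted p = 7.8e-09), JAM2 by 0.38 (5.3e-08) and the scaffold gene TJP1 by 0.19 (1.4e-09). Among desmosome genes, PERP differed by 1.52 (adjusted p = 3.3e-09), from 5.11 to 16.3 RPKM, the cadherin DSG2 by 0.87 (1.5e-08), EVPL by 0.53 (1.7e-08) and DSG3 by 0.16 (2.7e-06). Among adherens junction genes, the actin linkers VCL and AFDN differed by 0.54 (1e-07) and 0.49 (4.5e-08), NECTIN3 by 0.46 (1.1e-07) and CTNNA1 by 0.32 (9.3e-07), the last with its sign turned after quantile normalization. Among polarity genes, LLGL2 differed by 0.77 (7.7e-09), STK11 by 0.72 (9.6e-08) and MARK2 by 0.15 (6e-10), while PARD3, at 0.09 (8.2e-08), also turned under quantile normalization.

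Around SPINT1, the membrane protease gene PRSS8 rose from 13.0 to 49.4 RPKM (1.80, limma adjusted p = 2.9e-08), SPINT2, the related inhibitor, from 0.214 to 1.41 (0.97, 4.8e-07), and EPCAM from 11.9 to 28.3 (1.18, 9.2e-08). EPCAM did not pass with median-ratio factors (0.13, adjusted p = 0.43) or after quantile normalization (0.23, 0.2). In the list headed epithelial regulators, not every gene of which is a regulator, ELF3 rose from 1.71 to 29.8 RPKM (3.43, adjusted p = 4.8e-10). RAB25 of that list rose from 1.5 to 15.6 (2.73, 3.5e-09). MARVELD1 differed by 0.61 (5.5e-06) and GRHL1 by 0.56 (4.5e-06), the latter not passing with median-ratio factors and turning under quantile normalization. DSG2 and TJP1 did not pass after quantile normalization (limma adjusted p = 0.063 and 0.5). The genes that fell were CTNNB1, the beta-catenin of the adherens junction (-0.56, adjusted p = 9.7e-05), PKP4 (-0.06, 0.0031), OVOL2 (-0.20, 0.0043) and TFAP2C (-0.46, 0.017), named after their values were seen. Of the mesenchymal genes, FN1 rose from 3.02 to 10.8 RPKM (1.57, adjusted p = 1.5e-07), and SNAI1 (0.91, 0.0013), SNAI2 (0.20, 0.017) and COL1A1 (0.08, 1.9e-05) passed as higher too, and SNAI1 and SNAI2 passed under the deposited scale alone.

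**Figure D5:**
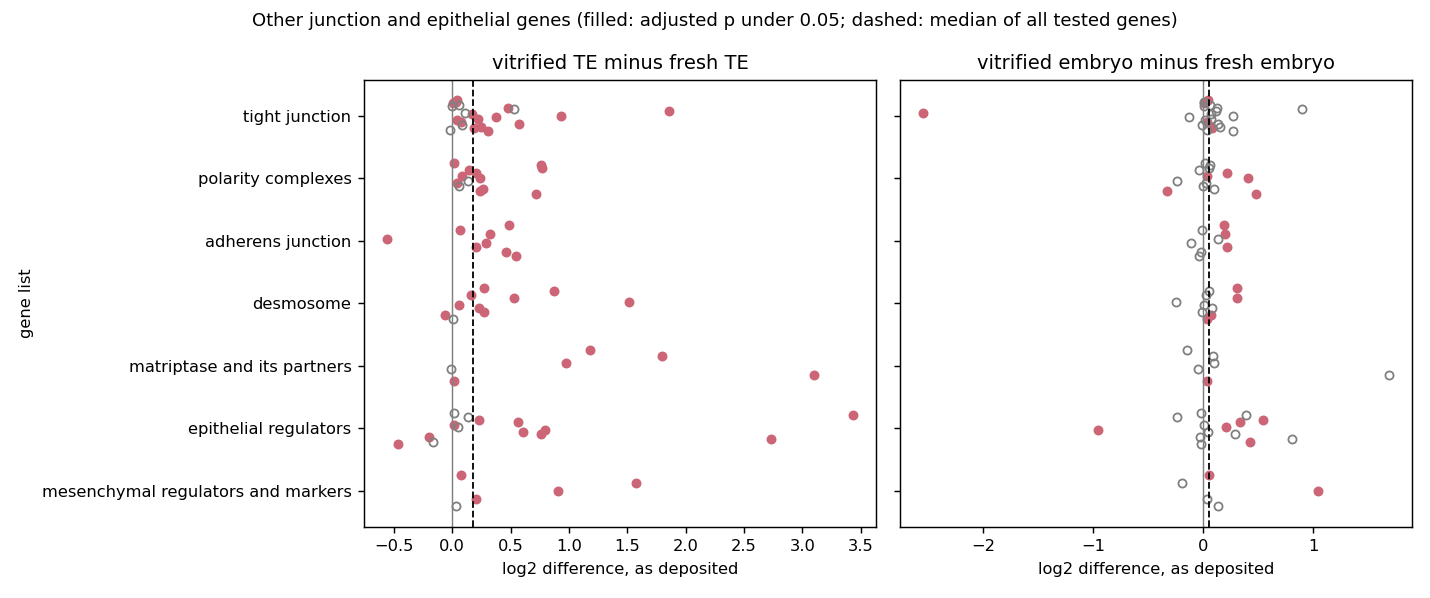
Tested genes of the 7 wider lists in vitrified against fresh TE and in vitrified against fresh embryos, as the change of deposited values on the log2(RPKM + 1) scale. Points are genes, filled where past the threshold, and the dashed line is the median of all tested genes. Filled points are 58 higher and 4 lower in TE, and 22 higher and 3 lower in embryos, where 69% and 26.9% of all tested genes passed as higher.

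In fresh embryos against fresh TE, 44 of the 77 genes passed as higher and 7 as lower and 26 did not pass, beside 60% of all tested genes higher and 5.97% lower, and 16 and 24 were higher and lower after quantile normalization. Ordered by p and not by size of change, PERP (1.92, limma adjusted p = 8.1e-10) and DSG2 (0.76, 2.3e-07) led the desmosome genes. By the same order NECTIN3 (0.45, 3.7e-07) and VCL (0.50, 7.6e-07) led the adherens junction genes. JAM2 (0.36, 3.3e-07) and CLDN12 (0.60, 1.7e-06) likewise led the tight junction genes. EPCAM (1.22, 1.9e-07) and SPINT2 (0.89, 3.6e-06) passed as higher, as did MARK2 (0.08, 3.3e-06), PARD6B (0.46, 7.1e-05), FN1 (1.31, 3.8e-06) and VIM (0.21, 0.027). EPCAM, PARD6B and CLDN12 did not pass with median-ratio factors (limma adjusted p = 0.085, 0.45 and 0.076) or after quantile normalization (0.53, 0.81 and 0.17). FN1 did not pass with the latter (0.084), and the VIM call was lost without fresh embryo 3 or 4 or fresh TE 1 or 3 (limma adjusted p = 0.051 to 0.065). KLF5 rose from 0.948 to 4.88 RPKM (1.59, 8.9e-09), and TFAP2A fell from 1.43 to 0.288 (-0.91, 5.3e-08).

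In vitrified against fresh embryos, 22 of the 77 passed as higher and 3 as lower and 52 did not pass, beside 26.9% of all tested genes higher and 3.94% lower, and 4 and 8 were higher and lower after quantile normalization. GRHL3 (0.21, limma adjusted p = 0.00028) and ESRP2 (0.55, 0.00028) were higher, as were STK11 (0.48, 0.0024), EVPL (0.31, 0.0025), PPL (0.03, 0.0026) and TMPRSS2 (0.03, 0.0024). TJP1 (0.08, 0.005), AMOT (0.04, 0.013), CTNNA1 (0.20, 0.014), SNAI1 (1.04, 0.016), MPP5 (0.21, 0.018), COL1A1 (0.05, 0.027) and NECTIN2 (0.21, 0.037) passed as well. Several were at very low levels. GRHL3 averaged 0.0119 RPKM in fresh embryos and 0.172 ± 0.14 (SD, n = 2) in vitrified ones. Its change ran from 0.08 to 0.33 on leaving out a library. PPL averaged 0.00242 and 0.0265 RPKM, TMPRSS2 0.00894 and 0.033, AMOT 0.0086 and 0.0405 and COL1A1 0.0102 and 0.0473, in the same order. GRHL3, ESRP2, STK11 and EVPL passed under all 4 scalings, PPL and TMPRSS2 under 3, TJP1, AMOT and SNAI1 under 2, and CTNNA1, MPP5, COL1A1 and NECTIN2 under the deposited one alone. Without vitrified embryo 2 the calls of PPL, TMPRSS2, TJP1, AMOT, SNAI1, CTNNA1, MPP5, COL1A1 and NECTIN2 were lost (limma adjusted p = 0.062 to 0.65), and without vitrified embryo 1 that of EVPL (0.067). The NECTIN2 call was also lost without fresh embryo 2 or 4 (0.064 and 0.06). Between the vitrified groups 7 of 77 passed as higher in embryos and 6 as lower, and 64 did not pass, beside 15.3% of all tested genes higher and 3.59% lower.

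For the difference of the vitrification effects, 32 of the 77 genes passed as lower and 6 as higher and 39 did not pass, beside 28.4% of all tested genes lower and 3.98% higher, and 14 and 11 were lower and higher after quantile normalization. ELF3 had the largest difference of the genes named for it, -3.05 (limma adjusted p = 3.5e-05), from a rise in TE that whole embryos (12 ± 3.03 RPKM fresh, SD, n = 6, and 16.7 ± 8.47 vitrified, SD, n = 2) did not show to that extent. PERP (-1.77, 1.1e-05), KLF5 (-1.75, 1.4e-05), FN1 (-1.77, 0.00022), PRSS8 (-1.71, 0.00031) and EPCAM (-1.33, 0.00016) were lower by more than 1 on that scale. DSG2 (-0.82, 0.00022), LLGL2 (-0.72, 0.00016), VCL (-0.59, 0.00025), JAM2 (-0.51, 2.1e-05), MARVELD2 (-0.44, 0.00089), CTNND1 (-0.40, 0.00031) and MARK2 (-0.18, 1.5e-06) passed too, and SNAI2 (-0.16, 0.33) did not. CTNND1 passed under the deposited scale alone (down to -0.03, limma adjusted p = 0.79, after quantile normalization). EPCAM and DSG2 did not pass with median-ratio factors (adjusted p = 0.068 and 0.051) or after quantile normalization (0.14 and 0.066), and PRSS8 did not pass with the latter (0.063).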

How the data were processed

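RNA from 20 bovine samples was sequenced. FastQC, STAR 2.5.3a, Partek and the UMD3.1 build are named, per the submitters' processing notes. How reads were counted is not given in the sources used here. Values deposited by the authors are RPKM with 0.01 added, a unit inferred from the values, with the genomic span as length. After subtraction, 94.4 to 95.8% of values under 1000 reads lay within 0.1 of a whole multiple of 1 step per library, taken as 1 read. Per library, 2.03 to 8.73 M reads fell on the listed genes.

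Genes reaching 10 recovered reads in 2 or more libraries were tested on log2(RPKM + 1) with limma 3.58.1 (trend and robust fitting, statmod 1.5.0, R 4.3.3) in a model of 4 group means. Benjamini-Hochberg adjustment ran over all 10599 tested genes, with a threshold of 0.05. The values are normalized, so no count test was run. The procedure was also run on simulated log2 values with independent noise and few changed genes. That run covers neither the shift of fresh TE nor its near-identical libraries. All 20 sample columns were used. Python 3.11.15, numpy 2.4.6, pandas 2.3.3 and scipy 1.17.1 were used for the rest.

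The members and lists were chosen with earlier results of these data known. From each wider list, the 4 genes with the smallest p in vitrified against fresh TE were named, and 2 in fresh embryo against TE, vitrified against fresh embryos and the difference of effects. For likeness, the 3 genes with the highest r were taken, and 2 genes that these rules chose are not reported here. Of the 3, 1 is printed with group means removed. CLDN4, CLDN7, CTNNB1, PKP4, OVOL2, TFAP2C, SCRIB and, in embryos, KLF5 were named after their values were seen. All symbols were matched by name in the table, and the 7 members also in RefSeq's gene list. Alternatives were a pseudocount of 0.1, no filter, 3 other scalings, averaging of near-identical libraries, fitting only the groups compared, no trend or robust fitting, sample weights, a replicate block and leaving out each library.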

Additional observations from a re-analysis of the deposited data

Results flagged for a closer look

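The vitrified-minus-fresh difference was itself different between whole embryos and TE for 4 junction genes, by limma's interaction test with adjustment over all tested genes. All 4 were called lower, as were 28.4% of all tested genes. JUP rose in both sample kinds, and the embryo effect minus the TE effect was -1.38 on the log2(RPKM + 1) scale. For SPINT1 it was -1.57, with all 7 vitrified TE libraries above all 5 fresh TE libraries while vitrified embryos overlapped fresh ones. CLDN6 gave -2.98 and DSP -0.7, and both were higher in the vitrified group of either sample kind. The DSP difference did not pass with median-ratio factors (limma adjusted p = 0.084) or after quantile normalization (0.098). It was -0.4 without vitrified embryo 2. Fresh TE is the group with the lowest level of each of these genes, and the share of reads in listed genes separates it from the other 3 groups. The part of that share in these differences was not tested. Each of the 7 genes was also examined for a library far from the rest of its group, in 21 sets of 5 to 7 libraries, and 0 were found by Dixon's criterion at 95%.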

How the results depend on the processing

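For the 7 junction genes, 763 alternative values were computed: 702 kept their direction and their side of the threshold, 34 were no longer past it, 5 became past it and 22 changed sign. CGN changed sign in vitrified against fresh TE (-0.1 per listed reads, -0.45 with median-ratio factors, -0.5 after quantile normalization), in fresh embryos against fresh TE (-0.33, -0.53, -0.55, same order) and in the difference of effects (0.13, 0.3, 0.3). In vitrified against fresh embryos it stood at -0.15 with median-ratio factors, -0.2 after quantile normalization, -0.01 with the replicate block and -0.11 to 0.26 on leaving out a library, the lowest without vitrified embryo 1. In vitrified embryos against vitrified TE, CLDN3 stood at -0.03, -0.13 and -0.21 (the 3 scalings), -0.26 (replicate block) and -0.05 to 0.15 on leaving out a library, with negative values without vitrified TE 5, 6 and 7. There CGN ran from -0.29 to 0.07 and DSP from -0.4 to 0.2, both positive without vitrified embryo 2. The cause was not tested. The 1 call between the vitrified groups (SPINT1) became 0 with a pseudocount of 0.1, no filter, only the groups compared, sample weights or the replicate block, and 0 to 1 on leaving out a library. Elsewhere the number of junction genes past the threshold on leaving out a library was 7 in vitrified against fresh TE, 6 to 7 in fresh embryo against TE, 4 to 5 in vitrified against fresh embryos and 3 to 4 in the difference of effects, and 3 to 6 there under the other alternatives.

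For the other named genes, 1740 of 1856 alternative values kept direction and side, and 16 changed sign. CLDN7 did so in vitrified against fresh TE, at -0.23, -0.5 and -0.54 under the scalings, -0.32 with sample weights, -0.36 with the replicate block, and -0.19 to 0.44 on leaving out a library, negative without fresh TE 1, 2 or 5 or vitrified TE 6 or 7. After quantile normalization CTNNA1 stood at -0.03, GRHL1 at -0.05 and PARD3 at -0.01. CLDN4 in vitrified against fresh embryos stood at -0.21 with median-ratio factors, and at -0.03 to 0.27 on leaving out a library, negative without fresh embryo 6 or vitrified embryo 1.

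The labels do not tie samples to embryos, so the replicate numbers were not read as pairs. Samples with the same number deviated together in 7 of 22 pairs (correlation over 0.1, range -0.19 to 0.38). Samples with different numbers were not compared in this way, so these values cannot settle pairing. With the replicate block, all-gene calls went from 8017 to 7814 in vitrified against fresh TE, from 6997 to 6866 in fresh embryo against TE, from 3270 to 2579 in vitrified against fresh embryos, from 1998 to 790 between the vitrified groups and from 3427 to 2693 for the difference. The fit of only the groups compared was not run for the difference, which uses all 4. Depth limits CDH1, CLDN3 and CLDN6 in fresh TE, where 1 to 17 reads stand behind a value. It also limits CLDN3 in fresh embryos 2, 4 and 5 (14, 8 and 17 reads) and CDH1 in fresh embryo 4 (24 reads). Of the other named genes, MARK2, STK11, DSG3 and COL1A1 averaged only 0.00733, 0.0169, 0.0125 and 0.00503 RPKM in fresh TE.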

Other observations

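Of the claudins outside the 7 genes, CLDN7, named after its values were seen, averaged 10 ± 6.35 RPKM in fresh embryos (SD, n = 6) and 0.617 ± 0.193 in vitrified embryos (SD, n = 2), a limma difference of -2.54 (adjusted p = 0.018) in the direction opposite to that of CLDN3 and CLDN6. Over its alternatives the adjusted p of CLDN7 ran from 0.01 to 0.2. In TE it averaged 2.35 ± 2.63 RPKM (SD, n = 5) fresh and 2.58 ± 3.05 (SD, n = 7) vitrified, with no call (0.11, adjusted p = 0.87). CLDN4 rose from 38.4 to 139 RPKM between fresh and vitrified TE (1.86, adjusted p = 2.4e-07), and in vitrified against fresh embryos it differed by 0.12 (adjusted p = 0.79).

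The other genes of the lists that fell in vitrified embryos were KLF5, from 4.88 ± 0.995 to 2.0 ± 0.134 RPKM (-0.95, limma adjusted p = 0.00065), and the polarity gene SCRIB, from 0.46 ± 0.142 to 0.163 ± 0.0854 RPKM (-0.32, adjusted p = 0.036). The SCRIB call was lost under 9 of 18 alternatives.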
